A study of Mus musculus with 3 samples.

Results

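The cells described here, labelled non-dividing Elane-high granulocyte-monocyte progenitors, are from mouse bone marrow and were chosen by what each cell expressed. A cell was kept when at least 1% of its UMIs (unique molecular identifiers, each counting 1 captured RNA molecule) came from Elane, Prtn3 and Ctsg together and less than 2% from the secondary granule genes Ltf, Ngp, Camp and Lcn2. It also had no Cd34 UMI, fewer than 3 detected genes of the monocyte group Csf1r, Ccr2, F13a1, Ms4a6c, Fn1, Klf4 and Cx3cr1, an Mpo share below the pooled top 5% (under 0.127% of UMIs), and fewer than 5 UMIs over the division genes Top2a, Mki67, Ube2c, Birc5, Cdk1 and Nusap1. The rule found 178 of the 17879 cells that passed the cell filter of 500 UMIs, 200 genes and under 10% mitochondrial UMIs. These were 76 of 4318 cells in the homozygous knockout library, 44 of 7957 in the heterozygous knockout library and 58 of 5604 in the wild-type library.

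The study compared marrow of mice with homozygous knockout, heterozygous knockout or no knockout of Fabp4, a fatty acid binding protein best known from adipocytes and macrophages. Each genotype was 1 Chromium 3′ v3 library of marrow pooled from 2 mice, so no difference between genotypes has a replicate check and none was tested. Strain, age, the knockout allele and whether the mice carried leukaemia are not given in the sources used here. Fabp4 had 0 UMIs in the chosen cells of all 3 libraries, which allows up to 2.78 CPM (UMIs of the gene per 1000000 UMIs of those cells) in homozygous, 4.61 CPM in heterozygous and 3.38 CPM in wild-type cells, each limit taken as 3 counts, so the cells themselves give no check of the genotype labels. In all other cells Fabp4 had 5 UMIs in the homozygous, 38 in the heterozygous and 50 in the wild-type library.

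Granulocyte-monocyte progenitors give rise to neutrophils and monocytes. Their neutrophil branch first makes the serine proteases of the primary (azurophil) granules, then secondary and tertiary granule proteins. Division stops along this course, which is driven by PU.1, the C/EBP factors and Gfi1. Elane encodes neutrophil elastase, Prtn3 proteinase 3 and Ctsg cathepsin G. Ms4a3 encodes a membrane protein found in granulocyte-monocyte progenitors, and Fcnb the secreted lectin ficolin B.

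The promoters of these 5 genes are shown because the genes are the markers given for the cells. Of these, the rule used Elane, Prtn3 and Ctsg. As described further on, the 5 markers do not run together within the cells. Each line gives the 250 bases before the start of the gene's transcript in the promoter table, in the direction of the gene, from RefSeq on GRCm38.p6 (the mm10 assembly), with the letters GGAAGT in capitals. Elane lies on the plus strand at chr10:79886062-79886311 and Prtn3 on the plus strand at chr10:79879417-79879666. The minus strand holds Ctsg at chr14:56102575-56102824, Ms4a3 at chr19:11640852-11641101 and Fcnb at chr2:28084879-28085128. For Fcnb that start lies inside the annotated span of the gene, which reaches 28084910, so 32 of its 250 bases fall within the span, against 0 for the other markers; its distances below are counted from the table's start.
Elane: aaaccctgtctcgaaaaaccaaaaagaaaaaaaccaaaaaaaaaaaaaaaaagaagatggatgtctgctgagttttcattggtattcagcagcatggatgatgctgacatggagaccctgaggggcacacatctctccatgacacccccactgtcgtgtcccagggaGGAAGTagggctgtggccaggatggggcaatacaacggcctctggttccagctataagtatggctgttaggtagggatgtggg
Prtn3: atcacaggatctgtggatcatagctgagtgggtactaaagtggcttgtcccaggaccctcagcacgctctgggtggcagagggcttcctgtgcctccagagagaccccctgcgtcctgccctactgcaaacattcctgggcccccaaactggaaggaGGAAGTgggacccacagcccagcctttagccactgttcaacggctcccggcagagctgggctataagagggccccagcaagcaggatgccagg
Ctsg: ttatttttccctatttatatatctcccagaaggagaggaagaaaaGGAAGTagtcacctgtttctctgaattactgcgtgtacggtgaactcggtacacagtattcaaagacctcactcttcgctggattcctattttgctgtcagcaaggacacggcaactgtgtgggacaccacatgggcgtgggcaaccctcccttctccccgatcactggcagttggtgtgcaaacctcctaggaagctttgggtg
Ms4a3: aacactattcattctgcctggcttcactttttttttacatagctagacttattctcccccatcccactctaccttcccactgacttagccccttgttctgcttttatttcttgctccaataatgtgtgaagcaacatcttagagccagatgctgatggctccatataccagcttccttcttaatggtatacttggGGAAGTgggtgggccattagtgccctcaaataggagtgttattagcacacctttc
Fcnb: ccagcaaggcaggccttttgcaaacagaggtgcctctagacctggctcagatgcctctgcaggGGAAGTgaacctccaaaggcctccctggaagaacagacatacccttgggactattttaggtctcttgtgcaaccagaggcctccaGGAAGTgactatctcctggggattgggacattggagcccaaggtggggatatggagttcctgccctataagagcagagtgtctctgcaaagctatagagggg

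GGAAGT, a core that ETS factors such as PU.1 can bind, occurred in 5 of the 5 promoters, against 19.7% of 32851 mouse promoters of the same length, both strands searched (the other strand reads ACTTCC). Its first base stood 83 bases before the start of Elane, 93 before Prtn3, 205 before Ctsg, 55 before Ms4a3, and 187 and 102 before Fcnb. CAACNG, a core that MYB can bind, occurred in the promoters of Elane, Prtn3 and Ctsg, against 29.3% of all promoters. TTGCNNAA, a core of C/EBP sites, occurred in that of Fcnb alone, against 9.56% of all. TATAAG occurred in those of Elane, Prtn3 and Fcnb, against 6.65% of all, between 31 and 37 bases before the start. No searched motif overlapped another in these windows. The motifs were picked after the sequences were seen, and a match says only that the letters are there. Prtn3 and Elane are neighbours with 0 annotated genes between them, 3138 bases apart.

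The chosen cells held more UMIs per cell than the other cells of the same libraries. Their median was 14399.5 UMIs and 3883 genes in homozygous, 14433 UMIs and 3977.5 genes in heterozygous, and 14562.5 UMIs and 3983.5 genes in wild-type cells. The 3 libraries held 1079049, 651428 and 887946 UMIs over the chosen cells in that order of genotypes. Medians over all other passing cells were 8929 UMIs in the homozygous, 7619 in the heterozygous and 9997.5 in the wild-type library. Mitochondrial UMIs made up 10% or more in 46.8% of homozygous, 25.8% of heterozygous and 40.6% of wild-type barcodes, and 5, 1 and 2 such cells met the rest of the rule. The libraries shared between 21 and 26 cell barcodes pairwise. In the heterozygous library 30 of the 44 cells had RNA of Y-linked genes and no Xist, against 0 of 76 homozygous and 0 of 58 wild-type cells, so heterozygous and wild-type cells differ in sex as well as in genotype and these cannot be told apart.

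The rule set the levels of Elane, Prtn3 and Ctsg, which are therefore a description. Elane was at 9502 CPM in homozygous, 8392 CPM in heterozygous and 8256 CPM in wild-type cells, against 1979, 1147 and 2119 CPM in all other cells. Prtn3 was at 5617, 4759 and 5340 CPM in the same order of genotypes, and Ctsg at 1306, 1093 and 1009 CPM. T and NK cells, which should lack Elane, held 107 CPM in the homozygous (27 cells), 98.8 CPM in the heterozygous (15 cells) and 127 CPM in the wild-type library (20 cells). The nearest cells on either side of the protease limit had 1.002% and 0.990% of their UMIs from the 3 genes, and 4740 further cells failed at that limit alone. At the Mpo limit the nearest values were 0.126% and 0.128%, with 141 cells outside by Mpo alone, and 95 cells with 5 or more division UMIs were outside by division alone.

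Ms4a3 and Fcnb were not used by the rule. Ms4a3 stood at 838 CPM in homozygous, 830 CPM in heterozygous and 839 CPM in wild-type cells, against 235, 219 and 240 CPM in all other cells and between 9.17 and 60.8 CPM in T and NK cells. Its level differed between genotypes by less than the counting error, with a log2 ratio to wild type of -0.00 (95% interval -0.14 to 0.14) in homozygous and -0.01 (-0.18 to 0.15) in heterozygous cells. Per cell, Fcnb had a median of 304 CPM and a highest value of 2411 CPM in homozygous, 844 and 3235 CPM in heterozygous, and 333 and 1694 CPM in wild-type cells. It was detected in 78.9%, 100% and 93.1% of the cells, so single cells overlapped. Fcnb was at 472, 1053 and 489 CPM in homozygous, heterozygous and wild-type cells, and at 210, 521 and 171 CPM in all other cells of those libraries. Heterozygous cells thus held 2.15 times the wild-type level of Fcnb in the chosen cells, a log2 ratio of 1.11 (0.93 to 1.28), while homozygous cells stood at -0.05 (-0.24 to 0.14).

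**Figure D1:**
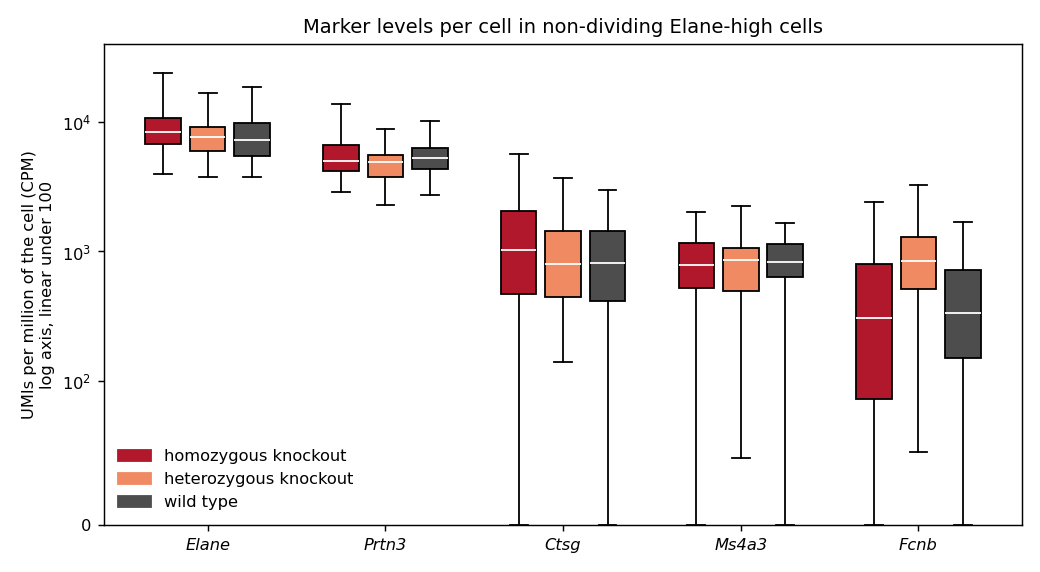
Levels of the 5 markers per cell, in CPM of the cell, in 76 homozygous knockout, 44 heterozygous knockout and 58 wild-type cells. Boxes span the quartiles with the median as a white line, and whiskers reach the lowest and highest cell. Ms4a3 medians lie close together (790, 856 and 826 CPM), and the Fcnb median is 844 CPM in heterozygous against 304 CPM in homozygous and 333 CPM in wild-type cells.

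Other genes that bear on the label were read next. Cebpe, which drives the secondary granule programme, was at 286 CPM in homozygous, 304 CPM in heterozygous and 296 CPM in wild-type cells. All other cells held 114, 223 and 149 CPM of it. Irf8, a monocyte and dendritic cell factor, was at 21.3, 3.07 and 23.7 CPM, against 243, 99.7 and 167 CPM in all other cells. The heterozygous value of Irf8 rests on 2 UMIs. Kit, the stem cell factor receptor of early progenitors, was at 41.7, 38.4 and 45.0 CPM, against 22.02, 22.2 and 28.6 CPM in all other cells, and Flt3 had 1 UMI in homozygous cells and 0 in the others. Csf1r, the monocyte growth factor receptor, was at 9.27, 6.14 and 7.88 CPM, a level the rule limits. Over the 10 T and NK cell markers the chosen cells held 4.63 CPM in homozygous, 0 CPM in heterozygous and 3.38 CPM in wild-type cells, and over the 10 red cell markers 0.927, 4.61 and 1.13 CPM. Among the genes the rule did not use, Ms4a3, Kit and Cebpe were thus above and Irf8 below the level of all other cells in each library. The rule left out cells with 3 or more of the monocyte genes and required the proteases. Genes that run with either, such as Irf8 and Ms4a3, are therefore not independent of the choice of cells. High Cebpe with low Irf8 lies on the neutrophil side of the name granulocyte-monocyte progenitor, which is kept here only as a label. Whether these cells can form monocytes was not tested. The rule itself keeps Cd34 at 0, and the cells are called Elane-high cells below.

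The cells carried Hox and Meis group genes, which are active in stem and progenitor cells and in several leukaemias. The 16 genes listed for this group include some that are neither Hox nor Meis, among them Mef2c, Eya1, Mecom, Runx2 and Dach1. Their sum is therefore not the level of Hox and Meis RNA alone. Summed over the 16 genes, the chosen cells held 6079 CPM in homozygous, 6430 CPM in heterozygous and 7452 CPM in wild-type cells. All other cells held 6441, 7841 and 9603 CPM, and T and NK cells 581, 843 and 1294 CPM. Meis1, a cofactor of Hox proteins, was at 632, 500 and 907 CPM and was detected in at least 97.7% of the cells of each library. Mef2c, a transcription factor of lymphoid and myeloid progenitors, was at 2250, 2031 and 2375 CPM.

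The share of Elane-high cells was 1.76% of passing cells in the homozygous library (exact 95% interval 1.39 to 2.20%), 0.553% in the heterozygous library (0.402 to 0.742%) and 1.03% in the wild-type library (0.787 to 1.34%). The 3 intervals do not overlap, but they cover counting error only and each genotype is 1 library. The dividing cells that met the rest of the rule ran in the same order, at 1.20% (0.901 to 1.58%), 0.239% (0.144 to 0.373%) and 0.428% (0.275 to 0.637%). The Mpo-high cells did not: 1.53% (1.18 to 1.94%) in the homozygous, 0.616% (0.456 to 0.813%) in the heterozygous and 2.66% (2.25 to 3.11%) in the wild-type library. In the heterozygous library 2155 of 7957 cells were non-dividing secondary-granule cells, against 262 of 4318 homozygous and 488 of 5604 wild-type cells. Each share is a part of the same whole, so a larger share of 1 set lowers the others.

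**Figure D2:**
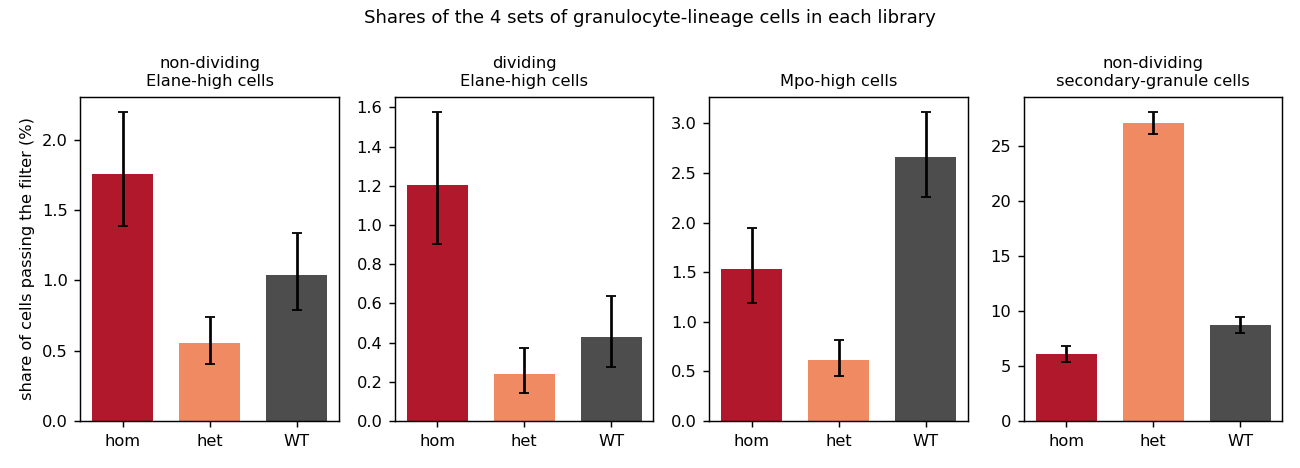
Shares of 4 sets of granulocyte-lineage cells among cells passing the filter, in percent, for the homozygous (hom), heterozygous (het) and wild-type (WT) library. Bars are shares of 1 library with exact 95% binomial intervals, and each panel has its own scale from 0. Non-dividing Elane-high cells stand at 1.76%, 0.553% and 1.03%.

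Between genotypes, genes with 20 or more UMIs in both libraries together were compared by their CPM over all Elane-high cells of a library. Against wild type, 262 of 8000 genes were at least 2-fold higher in homozygous cells (3.27%) and 295 at least 2-fold lower (3.69%). In heterozygous cells 210 of 7386 genes were at least 2-fold higher (2.84%) and 329 at least 2-fold lower (4.45%). These are counts past a fold, with no test. The 2 comparisons share the wild-type library. The median log2 ratio over all genes compared was -0.00 in homozygous and -0.04 in heterozygous cells.

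Interferon response genes were higher in homozygous cells. Of the 44 genes listed, 20 had enough UMIs, of which 19 had a higher level than wild type and 9 were at least 2-fold higher, with a median log2 ratio of 0.79; the other 24 had too few UMIs to compare. Over all genes, 49.5% were higher at all and 3.27% at least 2-fold. A gene can reach the minimum through the library where it is high.
Isg15, a ubiquitin-like modifier induced by interferon, was at 40.8 CPM in homozygous, 21.5 CPM in heterozygous and 7.88 CPM in wild-type cells, a log2 ratio of 2.37 (1.21 to 3.77) for homozygous cells. Ifitm3, which blocks virus entry, was at 238, 76.8 and 94.6 CPM. In both genes homozygous cells were highest, and heterozygous cells lay below wild type for Ifitm3 and between the other libraries for Isg15. Irf7, the factor that amplifies interferon production, was at 38.9, 3.07 and 12.4 CPM. Zbp1, a nucleic acid sensor, was at 25.02, 1.54 and 4.50 CPM, from 27, 1 and 4 UMIs. Stat2, a signal transducer of the interferon receptor, was the 1 gene lower in homozygous cells, at 19.5, 18.4 and 29.3 CPM.
Heterozygous cells did not share the pattern, with 2 of 13 genes higher than wild type, 11 lower and a median log2 ratio of -0.30; over all genes 46.3% were higher there. The homozygous median was 0.43 at a protease limit of 2% (13 homozygous and 8 wild-type cells) and 0.33 with no division gene UMI. In all other cells of the homozygous library 20 of the same 20 genes were higher than wild type, with a median of 0.93. Over all genes compared, 4627 of 8000 were higher in those other cells. MHC class I and antigen processing genes were higher in 9 of 10 in homozygous cells, by a median log2 ratio of 0.33 with 0 past 2-fold, B2m being at 372, 332 and 284 CPM in homozygous, heterozygous and wild-type cells.

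Immediate early genes, which cells switch on within minutes of a stimulus, had median levels above wild type in both knockout libraries. In heterozygous cells 14 of 14 genes were higher than wild type and 5 at least 2-fold, with a median log2 ratio of 0.81, against 46.3% and 2.84% over all genes. In homozygous cells 11 of 14 were higher and 3 at least 2-fold, with a median of 0.46, against 49.5% and 3.27% over all genes. At a protease limit of 2% the homozygous median was -0.0549, and in the 5 heterozygous cells with Xist alone the heterozygous median was 0.41. Fos, a subunit of the AP-1 factor, was at 359 CPM in homozygous, 694 CPM in heterozygous and 133 CPM in wild-type cells. Egr1, an early growth response factor, was at 85.3, 117 and 20.3 CPM. Klf2, a Kruppel-like factor, was at 1108, 1871 and 728 CPM. Fos was detected in 89.5% of homozygous, 100% of heterozygous and 69.0% of wild-type cells. For these 3 genes wild-type cells were lowest and heterozygous cells highest. Dusp1, a phosphatase of MAP kinases, was instead at 178, 345 and 204 CPM. The same list was higher by a median of 0.87 (14 of 14) in all other heterozygous cells and by 0.28 (13 of 14) in all other homozygous cells. Over all genes compared, 2415 of 7386 were higher in all other heterozygous cells and 4627 of 8000 in all other homozygous cells.

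**Figure D3:**
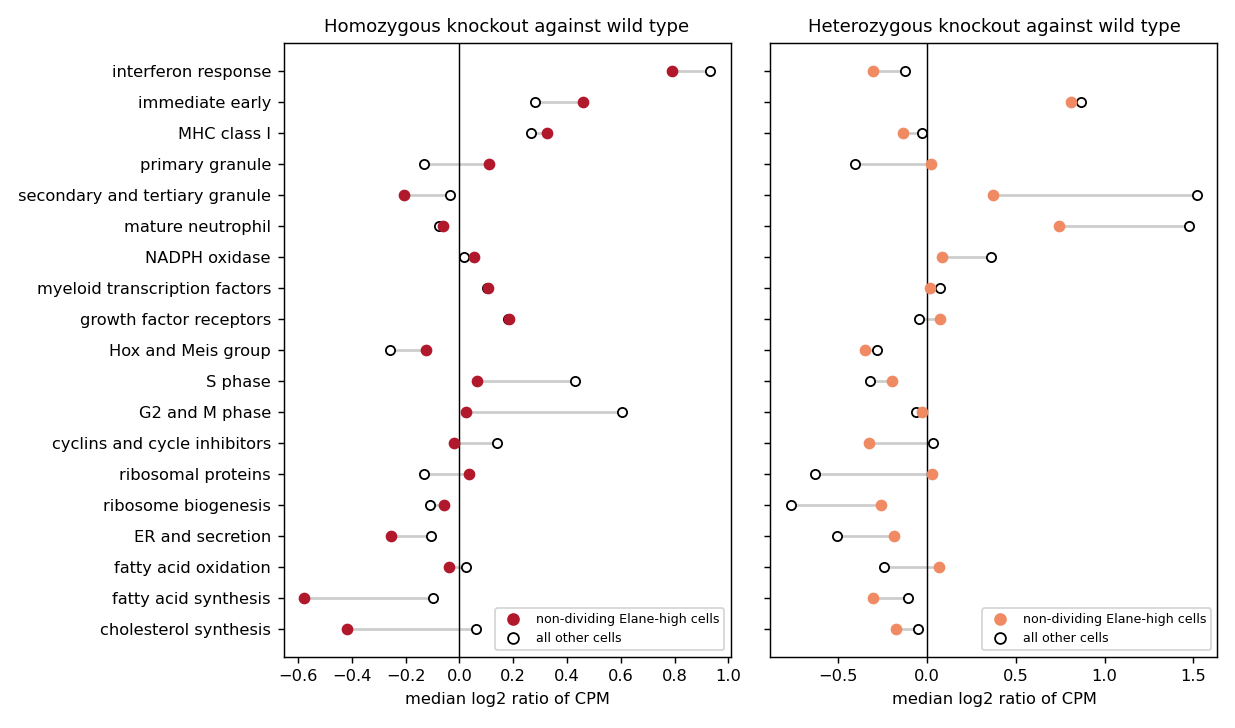
Median log2 ratio of CPM to wild type for 19 gene lists, in homozygous (left) and heterozygous (right) cells. Filled points are non-dividing Elane-high cells and open points all other cells of the same libraries, over the same genes. The interferon list stands at 0.79 in homozygous and -0.30 in heterozygous Elane-high cells, and the immediate early list at 0.46 and 0.81. The granule lists are drawn with their rule genes.

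Of the 8 primary granule genes that the rule did not use, 4 were higher and 4 lower than wild type in homozygous cells, with a median log2 ratio of 0.02. In heterozygous cells 4 of the 7 compared were higher, with a median of 0.29. Over all genes 49.5% were higher in homozygous and 46.3% in heterozygous cells. Lyz2, lysozyme, was at 740 CPM in homozygous, 482 CPM in heterozygous and 352 CPM in wild-type cells, and was the 1 member past 2-fold. Srgn, the proteoglycan that packs granule proteases, was at 3628, 3356 and 2736 CPM. Serpinb1a, the inhibitor of elastase and its relatives, was at 854, 915 and 619 CPM. Nkg7, a granule membrane protein, ran the other way at 258, 410 and 484 CPM. Lyz2, Srgn and Serpinb1a were thus lowest in wild-type cells and Nkg7 was highest there.

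Secondary and tertiary granule genes outside the rule were higher in 12 of 13 in heterozygous cells, by a median log2 ratio of 0.32 with 3 past 2-fold, against 46.3% and 2.84% over all genes. In homozygous cells 6 of 13 were higher and 7 lower, with a median of -0.05, against 49.5% higher over all genes. With the rule genes included, the heterozygous median was 0.37, and -0.09 at a protease limit of 2% (3 heterozygous and 8 wild-type cells). Ngp, a secondary granule protein, was at 121 CPM in homozygous, 1144 CPM in heterozygous and 515 CPM in wild-type cells, and Camp, the cathelicidin precursor, at 1208, 2594 and 2002 CPM; the rule caps both. Olfm4, an olfactomedin of secondary granules that the rule did not use, was at 148, 355 and 241 CPM. Each was highest in heterozygous and lowest in homozygous cells. Mature neutrophil genes were higher in 11 of 12 in heterozygous cells by a median of 0.74, against 46.3% over all genes, and in 4 of 11 in homozygous cells. The heterozygous median turned to -1.08 at the 2% limit and was 0.06 in the 5 cells with Xist alone. S100a9, a calcium-binding protein of neutrophils, was at 6950, 12107 and 7258 CPM. T and NK cells of the heterozygous library held 403 CPM of Ngp, against 48.9 CPM in the homozygous and 80.5 CPM in the wild-type library, and all other cells held 7087, against 1584 and 1836 CPM. The part of free RNA in the granule gene levels was not tested.

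Among the myeloid transcription factors, 12 of 20 were higher than wild type in homozygous and 10 of 20 in heterozygous cells, with medians of 0.11 and 0.02. Over all genes 49.5% and 46.3% were higher, so the factors as a list lay near that share. Gfi1, a repressor needed for neutrophil differentiation, was at 127 CPM in homozygous, 79.8 CPM in heterozygous and 45.0 CPM in wild-type cells, a log2 ratio of 1.49 (0.98 to 2.04) for homozygous and 0.83 (0.20 to 1.46) for heterozygous cells. Gfi1 was detected in 51 of 76 homozygous, 30 of 44 heterozygous and 24 of 58 wild-type cells, with medians of 96.1, 68.7 and 0 CPM per cell and highest values of 537, 334 and 368 CPM. In all other cells Gfi1 was at 41.2, 35.2 and 26.5 CPM. Cebpa, the C/EBP factor that opens the granulocyte-monocyte stage, was at 69.5, 41.4 and 41.7 CPM, and Myb, a factor of immature cells, at 422, 270 and 289 CPM. Homozygous cells were highest in all 3. Etv6, an ETS repressor, was at 500, 649 and 819 CPM, and Id1, an inhibitor of basic helix-loop-helix factors, at 189, 198 and 322 CPM. Both were highest in wild-type cells. Tcf4, a basic helix-loop-helix factor, was at 23.2, 75.2 and 54.1 CPM and was the 1 factor at least 2-fold lower in homozygous cells. Cebpb was at 458, 422 and 345 CPM, Cebpd at 218, 221 and 208 CPM and Spi1, which encodes PU.1, at 503, 487 and 432 CPM. Runx1 was at 233, 307 and 360 CPM and Zeb2 at 1276, 824 and 953 CPM. Irf4 and Gata1 had 0 UMIs in all 3 libraries.

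Receptors for growth factors and cytokines were within 2-fold of wild type for 12 of 12 genes in homozygous and 11 of 12 in heterozygous cells. Most genes were: over all genes, 3.27% were at least 2-fold higher and 3.69% at least 2-fold lower in homozygous cells. In heterozygous cells these shares were 2.84% and 4.45%, so the counts do not set the receptors apart. Csf3r, the receptor for granulocyte colony-stimulating factor, was at 63.0 CPM in homozygous, 62.9 CPM in heterozygous and 51.8 CPM in wild-type cells. Csf2ra, the specific chain of the GM-CSF receptor, was at 332, 221 and 229 CPM, and Tnfrsf1a, a tumour necrosis factor receptor, at 72.3, 41.4 and 40.5 CPM. Csf2rb, the shared chain, was at 25.02, 4.61 and 45.0 CPM, from 27, 3 and 40 UMIs; Csf2rb2 is a near copy and reads could be split between them. Ifngr1, an interferon-gamma receptor chain, was at 349, 316 and 257 CPM.

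Pbx3, a homeobox cofactor of Hox and Meis proteins, had the lowest ratio to wild type of the genes named in homozygous cells. It was at 71.4 CPM in homozygous, 794 CPM in heterozygous and 964 CPM in wild-type cells, a log2 ratio of -3.76 (-4.11 to -3.42) for homozygous cells. Per cell, the median was 0 CPM with a highest value of 1029 CPM in homozygous cells, 763 with a highest of 1975 CPM in heterozygous cells and 262 with a highest of 6320 CPM in wild-type cells, so single cells overlapped. All other cells held 210, 1030 and 1247 CPM, and T and NK cells 42.8, 198 and 173 CPM, so the low level in the homozygous library was seen in other cells too.
Hoxa9 was at 470 CPM in homozygous, 155 CPM in heterozygous and 287 CPM in wild-type cells. Medians per cell were 401, 125 and 309 CPM and the highest cells 1746, 781 and 831 CPM, so the cells of the libraries overlapped. Log2 ratios to wild type were 0.71 (0.49 to 0.93) in homozygous and -0.89 (-1.24 to -0.55) in heterozygous cells. In all other cells Hoxa9 was at 265, 124 and 183 CPM, the same order. Hoxa7 and Hoxa10 followed that order, at 124, 64.5 and 82.2 CPM and at 112, 43.0 and 63.1 CPM, and Hoxa5 did not, at 55.6, 55.3 and 61.9 CPM. Eya1, a transcriptional coactivator, was at 750, 784 and 651 CPM. Dach1, a transcriptional repressor, was at 467, 815 and 610 CPM, and Mecom, a zinc finger factor of stem cells, at 603, 878 and 658 CPM. Runx2 was at 488, 281 and 720 CPM and Bmi1 at 22.2, 9.21 and 18.0 CPM. Of 13 genes compared, 5 were higher in homozygous and 3 in heterozygous cells than in wild type, against 49.5% and 46.3% over all genes.

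Lipid genes were examined because Fabp4 carries fatty acids. Fatty acid synthesis genes were lower than wild type in 6 of 8 in both knockout libraries, by medians of -0.58 in homozygous and -0.30 in heterozygous cells, with 1 gene past 2-fold in each. Over all genes 50.5% were lower in homozygous and 53.7% in heterozygous cells, and 3.69% and 4.45% past 2-fold. The heterozygous median turned to 0.10 at the 2% limit and to 0.06 in the 5 cells with Xist alone. Fasn, fatty acid synthase, was at 15.8 CPM in homozygous, 16.9 CPM in heterozygous and 36.0 CPM in wild-type cells, from 17, 11 and 32 UMIs. Acaca, acetyl-CoA carboxylase, was at 53.8, 58.3 and 85.6 CPM. Acsl1, which activates long-chain fatty acids and stands in the uptake list, was at 112, 152 and 227 CPM. Of the 6 uptake genes compared, 3 were lower than wild type in homozygous and 5 in heterozygous cells, with medians of -0.04 and -0.35. At the 2% limit the uptake medians were -1.07 in homozygous and -1.555 in heterozygous cells. Fasn, Acaca and Acsl1 were highest in wild-type cells. Of the oxidation genes, 6 of 15 had higher values than wild type in homozygous and 9 of 16 in heterozygous cells, with medians of -0.04 and 0.07. Eci1, an enoyl-CoA isomerase of that pathway, was at 62.1, 46.1 and 27.0 CPM. Cholesterol synthesis genes were lower in 7 of 11 and 6 of 9, with medians of -0.42 and -0.17. These medians turned to 0.34 in homozygous and 0.65 in heterozygous cells at the 2% limit. In the 5 heterozygous cells with Xist alone the cholesterol synthesis median was -0.72. In all other cells the fatty acid synthesis list had medians of -0.10 and -0.11. Fabp5, the related binding protein, was at 20.4, 13.8 and 15.8 CPM. Endoplasmic reticulum and secretion genes were lower in 17 of 25 in homozygous and 20 of 25 in heterozygous cells, by medians of -0.26 and -0.18. Hspa5, the chaperone BiP, was at 782, 834 and 1130 CPM, and Sdf2l1, a chaperone partner, at 151, 130 and 232 CPM, both highest in wild-type cells.

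The genes farthest from wild type, ranked by the bound of their interval nearest to 0, were mostly shared with the rest of the marrow. Of 10 named as higher in homozygous cells, 10 were also higher in all other cells of that library, 4 of them by 2-fold or more. Of 10 named as lower, 9 were also lower there, 5 of them by 2-fold or more. Over all 8000 genes compared, 4627 were higher in those other cells, 41 of them by 2-fold or more. Another 3373 were lower, 56 of them by 2-fold or more. Lars2, the mitochondrial leucyl-tRNA synthetase, was at 677 CPM in homozygous, 138 CPM in heterozygous and 167 CPM in wild-type cells, and at 777, 279 and 242 CPM in all other cells. Penk, which encodes proenkephalin, was at 487, 206 and 175 CPM, and at 205, 143 and 72.7 CPM in all other cells. Cdk8, the kinase of the Mediator complex, was at 579, 175 and 198 CPM, and at 581, 235 and 217 CPM in all other cells. Cmss1, Camk1d and Slfn2 were the remaining genes of this group outside the lists above, at 1692, 559 and 216 CPM in homozygous cells against 598, 223 and 76.6 CPM in wild-type cells.
Angpt1, a ligand of the Tie2 receptor, was at 14.8 CPM in homozygous, 30.7 CPM in heterozygous and 86.7 CPM in wild-type cells, and at 27.7, 53.6 and 108 CPM in all other cells. Col19a1, a collagen, was at 25.9, 395 and 136 CPM, from 6, 27 and 15 cells with a UMI. Wipi2, an autophagy protein, was at 21.3, 62.9 and 107 CPM. Cstdc4, a stefin-family gene with near copies, was at 58.4, 465 and 224 CPM and was the exception, at 745, 2307 and 727 CPM in all other cells. Kcnq5, Zc3h12c, Tshz1 and Simc1 were between 10.2 and 22.2 CPM in homozygous and between 57.4 and 96.9 CPM in wild-type cells.

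In heterozygous cells, 12 of the 12 genes named differed from wild type in the same direction in all other cells. Over all 7386 genes compared, 2415 were higher in those other cells and 4971 lower, 138 and 109 of them by 2-fold or more. Cxcl10, a chemokine, was at 376 CPM in heterozygous cells, against 22.2 CPM in homozygous and 28.2 CPM in wild-type cells, but 89.8% of its heterozygous UMIs came from 1 cell. Leaving out the top cell of each library lowered its log2 ratio to wild type to 1.91, against 3.74 with all cells, and a filter of 1000 UMIs and 5% mitochondrial UMIs to 0.24. Cxcl2, another chemokine, was at 249 CPM in heterozygous, 34.3 CPM in homozygous and 55.2 CPM in wild-type cells. Fosb was at 554, 235 and 160 CPM and Pclaf, a PCNA-associated factor, at 120, 15.8 and 25.9 CPM in heterozygous, homozygous and wild-type cells. Satb1, a chromatin organiser, was at 18.4 CPM in heterozygous, 130 CPM in homozygous and 180 CPM in wild-type cells. Ecpas, a proteasome adaptor, was at 450, 742 and 1157 CPM in that order. Msi2, Cntln and Dnajc25 were between 9.21 and 21.5 CPM in heterozygous and between 66.4 and 99.1 CPM in wild-type cells.
With only the 5 heterozygous cells that had Xist and no Y-linked RNA, the log2 ratio of Egr1 was 0.37 against 2.52 with all cells, that of Pclaf 0.02 against 2.21 and that of Msi2 -0.73 against -2.85.

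**Figure D4:**
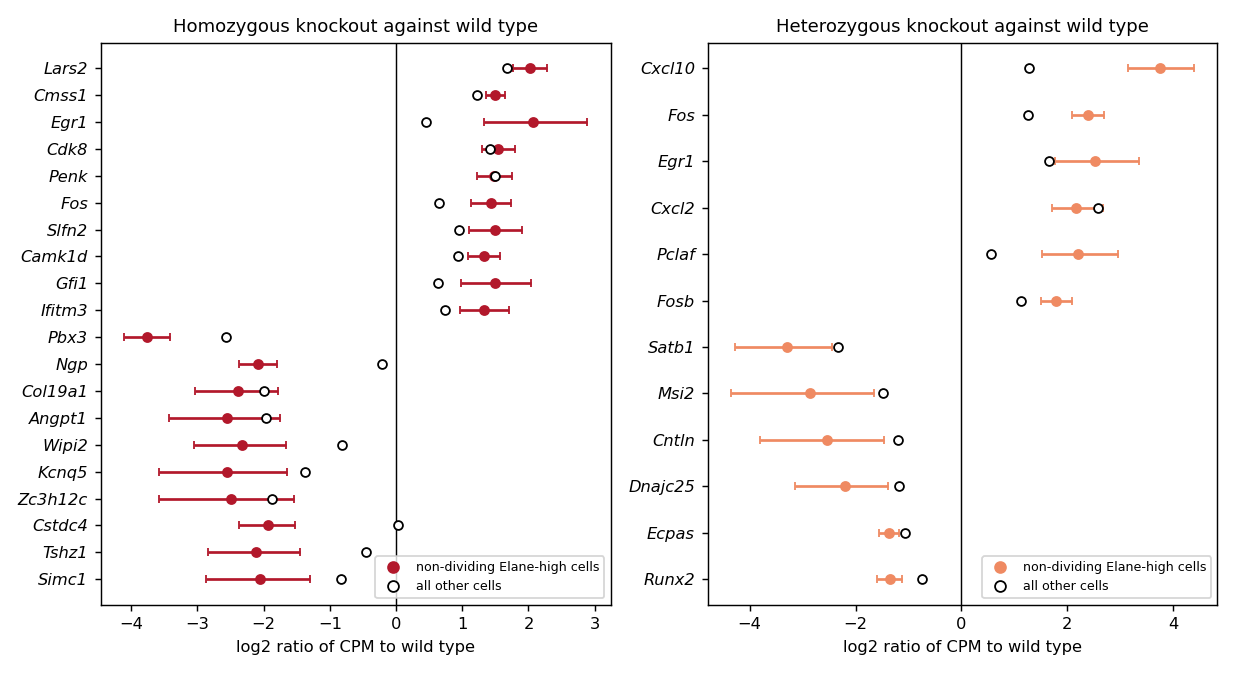
Log2 ratio of CPM to wild type for the genes named by rank, in homozygous (left) and heterozygous (right) cells. Filled points are non-dividing Elane-high cells with 95% counting intervals, and open points the same genes in all other cells. Pbx3 stands at -3.76 in homozygous Elane-high cells, and of the 32 pairs of points only that of Cstdc4 lies on different sides of 0.

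Within the 178 cells the markers did not run together. The cells were split by their share of UMIs from the 4 secondary granule genes, into 92 cells under 0.1%, 57 cells from 0.1 to 0.5% and 29 cells from 0.5 to 2%. Over the 3 bands, low to high, Fcnb was at 364, 819 and 1066 CPM and S100a9 at 2546, 10803 and 22324 CPM. Ctsg was at 1440, 986 and 546 CPM, Myb at 377, 324 and 248 CPM, and Prtn3 at 5665, 5049 and 4677 CPM. Fcnb and S100a9 were thus higher and Ctsg and Myb lower in the bands richer in secondary granule RNA. Elane, at 8925, 8880 and 8243 CPM, and Ms4a3, at 834, 867 and 782 CPM, stayed within a narrow range. The bands were filled unevenly, the lowest holding 52 homozygous, 3 heterozygous and 37 wild-type cells, and the middle one 16, 29 and 12. Within each library the direction of Fcnb, S100a9, Ctsg and Myb across the bands was the same, and that of Prtn3 was not. In T and NK cells the 4 secondary granule genes made up 0.0351% of UMIs in the homozygous, 0.150% in the heterozygous and 0.0391% in the wild-type library, so the heterozygous value alone is above the 0.1% limit of the lowest band. The part of free RNA in how the bands were filled was not tested.
Split instead by protease share, Ms4a3 was at 693 CPM in the lowest band of 63 cells, 808 CPM in the middle band of 76 and 1081 CPM in the top band of 39. Cebpe was at 254, 298 and 343 CPM and Myb at 346, 347 and 317 CPM over the same bands. By division gene UMIs, Myb was at 417 CPM in 49 cells with 0, 340 CPM in 99 cells with 1 or 2 and 232 CPM in 30 cells with 3 or 4. All genes of these cells shared the choice of the cells, so these values describe them and carry no test.

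**Figure D5:**
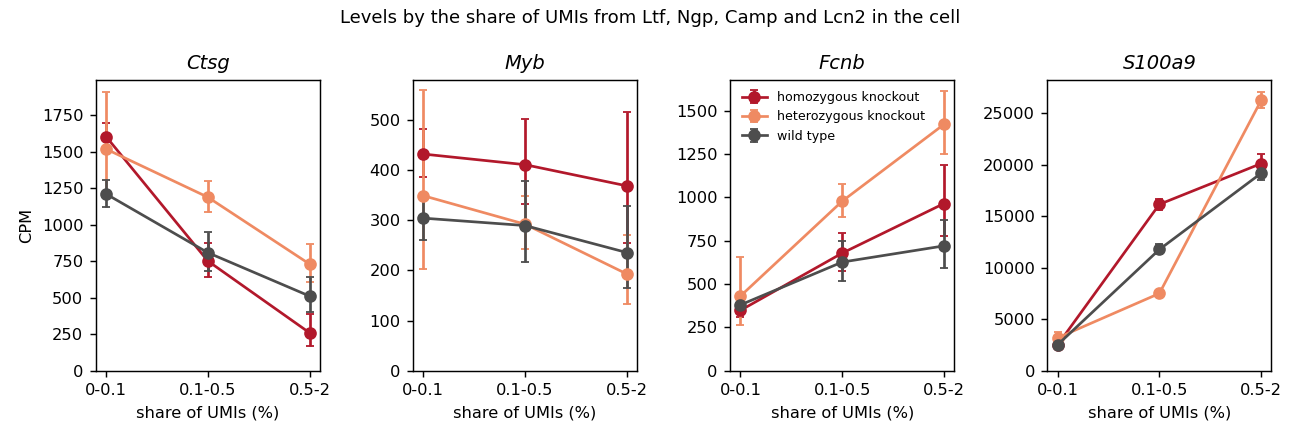
CPM of Ctsg, Myb, Fcnb and S100a9 in Elane-high cells split by the share of their UMIs from Ltf, Ngp, Camp and Lcn2, with exact 95% Poisson intervals for counting error. Lines are the 3 libraries. Over all libraries Ctsg is at 1440, 986 and 546 CPM and S100a9 at 2546, 10803 and 22324 CPM, and the heterozygous point of the lowest band rests on 3 cells.

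The Elane-high cells were then set beside the 3 sets most like them, as sums per library over 8973 genes that the rule did not use. All sets were cut from the same cells by expression, so genes that run with a rule gene had to differ, and the counts describe the sets. Counts are of genes under an adjusted p of 0.05 in edgeR's quasi-likelihood fit with the library as a covariate. Set beside their 95 dividing counterparts, 73 genes were higher in non-dividing cells (0.814%) and 312 lower (3.48%). G2 and M phase genes outside the rule were lower in 42 of 45, by a median log2 ratio of -2.91, and S phase genes in 16 of 40, by -0.62. Without the homozygous library 22 genes were higher and 165 lower, and 37 and 35 were higher without the heterozygous and without the wild-type library. Pcna, the polymerase clamp, averaged 132 ± 7.0 CPM in non-dividing and 236 ± 71.5 CPM in dividing cells (SD, n = 3 libraries). Mcm5, of the replicative helicase, differed by 0.13 ± 0.21 (log2 ± SE) and was not called. The granule genes, the myeloid factors and the ribosomal proteins were nearly all uncalled, with 1 of 8 primary granule genes, 0 of 19 factors and 0 of 31 ribosomal proteins called. Most genes were uncalled, with 0.814% higher and 3.48% lower over all genes, so these counts do not set the lists apart. Lyz2 was higher by 0.89 ± 0.19, Cybb, the catalytic subunit of the NADPH oxidase, by 0.74 ± 0.16, Dach1 by 0.75 ± 0.18 and Mecom by 0.72 ± 0.19. P2ry14, a receptor for UDP-glucose, averaged 41.0 ± 25.9 CPM in non-dividing and 10.04 ± 11.9 CPM in dividing cells, and Cd14, the endotoxin co-receptor, 62.1 ± 25.99 and 22.1 ± 6.4 CPM.

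Against the 264 Mpo-high cells, 145 genes were higher in the Elane-high cells (1.62%) and 226 lower (2.52%). These were 34 and 84 without the homozygous library and 39 and 120 without the wild-type library. The Mpo-high cells were not limited in division, and G2 and M phase genes were lower in 33 of 45 in the Elane-high cells. Cst7, cystatin F, averaged 8.9 ± 5.2 CPM in Elane-high and 43.4 ± 19.8 CPM in Mpo-high cells, a log2 ratio of -2.33 ± 0.30, and Ms4a3 836 ± 4.6 and 1130 ± 33.6 CPM. Secondary granule genes were higher in 5 of 15 and lower in 0. Cd177, a neutrophil surface protein, averaged 77.5 ± 28.2 CPM in Elane-high and 38.7 ± 22.4 CPM in Mpo-high cells, and Olfm4 248 ± 103 and 137 ± 46.1 CPM. Mecom was higher by 1.19 ± 0.19. Cebpe, Gfi1, Cebpa and Myb differed by at most 0.43 in log2 and were not called.

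Against the 2905 non-dividing secondary-granule cells, 2125 genes were higher in the Elane-high cells (23.7%) and 2449 lower (27.3%). In this contrast TMM scaling set the log2 values lower than the plain ratio of mean CPM by a median of 0.32, and the values below are scaled. Ribosomal proteins were higher in 31 of 31, by a median log2 ratio of 1.20, and ribosome biogenesis genes in 23 of 26, by 1.19. S phase genes were higher in 18 of 40 and lower in 0, with a median of 0.45. Both sets had fewer than 5 UMIs of the 6 division genes, and the name non-dividing rests on that limit alone. Ncl, nucleolin, averaged 634 ± 109 CPM in Elane-high and 260 ± 31.6 CPM in secondary-granule cells. Cebpa was higher by 1.78 ± 0.22, Myb by 1.16 ± 0.13, Kit by 1.17 ± 0.21 and Gfi1 by 0.77 ± 0.17. Cebpe was lower by 0.59 ± 0.12 and Spi1 by 0.72 ± 0.10 on the log2 scale. Ms4a3 was higher by 1.89 ± 0.12, Nkg7 by 2.54 ± 0.19 and Prss57, a primary granule protease, by 1.91 ± 0.16. Fcnb, the other marker outside the rule, was called lower. Of the primary granule genes outside the rule, 6 were higher and 2 lower. Mature neutrophil genes were lower in 15 of 16, secondary and tertiary granule genes in 14 of 15, and NADPH oxidase genes in 7 of 8. Hoxa9 averaged 304 ± 158 CPM in Elane-high and 162 ± 65.1 CPM in secondary-granule cells. The Hox and Meis group did not follow it as a list. Of its 15 genes fitted, 1 was called higher in Elane-high cells, 5 lower and 9 not called. Their median log2 ratio was -0.30.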

How the data were processed

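Marrow cells were profiled by droplet sequencing of RNA 3′ ends. The deposited files hold UMI counts per gene and barcode, made with Cell Ranger and STAR on mm10 per the submitters' processing notes and with Cell Ranger 8.0.1 per the file headers. The annotation and whether intronic reads were counted are not given in the sources used here. Genotypes come from the labels. The cells and gene lists were chosen with earlier results of these data known.

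UMIs were summed over the chosen cells of each library and given as CPM, with exact 95% Poisson, Clopper-Pearson or conditional ratio intervals, which cover counting error only. Total UMIs were 54160590 in the homozygous, 78426908 in the heterozygous and 77173735 in the wild-type library. Genes with 20 or more UMIs in the 2 libraries compared were counted past a 2-fold ratio. Doublets were scored with Scrublet (scanpy 1.11.5); its automatic threshold called 0%, so the top scores (527, 919 and 712 barcodes) were marked and left out only as an alternative. Sets of cells were compared with edgeR 4.0.16 (TMM, 12 summed profiles, 4 sets, library as covariate, 6 residual degrees of freedom, Benjamini-Hochberg), where libraries of different genotypes serve as replicates. Both steps were tested on simulated data.

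Named genes were the 5 markers; for each genotype the 10 (homozygous) or 6 (heterozygous) per direction with the interval bound farthest from 0 and 50 or more UMIs in 1 library, unannotated, ribosomal, mitochondrial, immunoglobulin and sex-linked genes left out; up to 8 per direction for each set contrast; up to 4 per list; and all members of the factor, receptor and Hox lists. Pcna, Mcm5, Cst7, Prss57, Olfm4 in the set contrasts, Irf7, Stat2, Dusp1, Fabp5 and Cyba were picked after their values were seen. Some listed genes are not reported here.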

Additional observations from a re-analysis of the deposited data

How the results depend on the processing

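No paired analysis was possible because each genotype is 1 library. Depth limits genes under about 20 UMIs, and 44 heterozygous cells give the widest intervals. With a protease limit of 2% (13, 3 and 8 cells) the shares were 0.301%, 0.0377% and 0.143% in the homozygous, heterozygous and wild-type library, and with no division gene UMI 0.440%, 0.151% and 0.321%, the same order.

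Against wild type at the 2% limit, 170 genes were past 2-fold higher and 136 lower in homozygous cells, and 77 and 126 in heterozygous cells; with no division UMI 171 were lower in homozygous cells. A minimum of 50 UMIs gave 73 and 116 in homozygous and 59 and 88 in heterozygous cells, and no minimum 877 and 1180, and 1034 and 1104, as more or fewer genes were compared. With only Xist cells (5 heterozygous) the heterozygous counts were 417 and 1188. The interferon median of homozygous cells was 0.68 under 1000 UMIs and 5% mitochondrial UMIs, 0.43 at the 2% limit and 0.33 with no division UMI. The immediate early median was -0.0549 in homozygous cells at the 2% limit and 0.41 in heterozygous Xist cells. At the 2% limit, log2 ratios turned to 0.50 for Mpo in homozygous cells and, in heterozygous cells, to 0.80 for Msi2, 0.0179 for Hoxa9 and -1.08 for the mature neutrophil median. The cholesterol synthesis median turned to 0.34 in homozygous and 0.65 in heterozygous cells at that limit. The cause was not tested. Of 483 values over alternatives for named genes, 414 stayed within the counting interval. The settings that changed only the minimum of UMIs could not move a gene's own ratio, and centring on the median moved all genes alike. The count of 414 is therefore no measure of how stable the ratios are.

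In the set contrasts, leaving out 1 library gave 22 to 37 genes higher and 165 to 262 lower than in dividing cells, 34 to 184 and 84 to 243 against Mpo-high cells, and 1569 to 1860 and 1822 to 1983 against secondary-granule cells. DESeq2 (1.42.0) called 45 genes higher than in dividing cells. The Y-linked alternative had no homozygous or wild-type cells and was not run.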

Other observations

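Of the 14 cell cycle regulators compared, 7 were higher and 7 lower than wild type in homozygous Elane-high cells, with 49.5% of all genes higher, and 4 were higher and 10 lower in heterozygous cells, with 46.3% of all genes higher. Cdkn2c, the inhibitor p18, was at 38.0 CPM in homozygous, 181 CPM in heterozygous and 131 CPM in wild-type cells. Cdkn1a, the inhibitor p21, was at 22.2, 39.9 and 66.4 CPM. Both were lowest in homozygous cells, while Cdk6, a cyclin D kinase, was at 1401, 1293 and 1608 CPM and Ccnd3, a D-type cyclin, at 237, 190 and 171 CPM. S phase genes were higher in 21 of 37 in homozygous cells, with a median log2 ratio of 0.07, and in 8 of 36 in heterozygous cells, with a median of -0.20. In all other cells these medians were 0.43 and -0.32.

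The NADPH oxidase of the neutrophil respiratory burst was close to wild type in both knockout libraries, with medians over 8 genes of 0.05 in homozygous and 0.09 in heterozygous cells. Cybb, its catalytic subunit, was the member farthest from wild type, at 449 CPM in homozygous, 505 CPM in heterozygous and 253 CPM in wild-type cells. Cyba, its membrane partner, was at 1413, 1420 and 1461 CPM.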
